A study of Mus musculus with 4 samples.

Results

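The fibrillar collagen genes measured here are Col1a1, Col1a2, Col3a1, Col5a1, Col5a2, Col5a3 and Col11a1. They were taken by symbol, 7 of the 32287 genes listed in the count matrices, and each symbol was found once. Fibrillar collagens are rod-shaped proteins of 3 chains that are secreted as procollagens, trimmed outside the cell and packed into the banded fibrils that give a vessel wall its tensile strength. Type I collagen is built from the chains of Col1a1 and Col1a2 and type III collagen from the chain of Col3a1 alone. The chains of type V and type XI collagen (Col5a1, Col5a2, Col5a3 and Col11a1) lie inside the fibrils, where they start fibrils and limit their width. In the aortic media these genes are transcribed by smooth muscle cells, and TGF-beta is a well-known inducer of them.

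Single-cell RNA sequencing had been done on GFP-positive smooth muscle cells sorted from the ascending aorta and arch of C57BL/6J mice aged 12 weeks, with 2 control libraries (WT 1 and WT 2) and 2 knockout libraries (KO 1 and KO 2). The WT mice were Myh11-CreERT2.mT/mG, and the KO mice added the floxed alleles Tgfbr1f/f and Tgfbr2f/f to the same background. Both genotypes therefore carried a tamoxifen-inducible Cre under control of Myh11 and a reporter, mT/mG, that switches from tdTomato to GFP where Cre has acted. Both genotypes received tamoxifen for 5 days, at 1 mg per day from 4 weeks or at 2 mg per day from 11 weeks of age, and which library had which course is not given in the labels. The comparison asks what smooth muscle cells transcribe with and without both TGF-beta receptor genes, Tgfbr1 and Tgfbr2. Nothing in the labels says how many mice stand behind each library, so the p-values measure the spread between these samples.

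The tests used 2429 and 3265 WT cells and 4247 and 3519 KO cells, with 35255748 to 59160677 UMIs (unique molecular identifiers, 1 per captured transcript) per library and a median of 13901 to 15383 per cell. Between 3 and 6 cell barcodes were shared by any 2 libraries. The smooth muscle markers added up to 45013 to 51475 CPM (counts per 1000000 UMIs) in the 4 libraries, with all 9 detected in each. In the order WT 1, WT 2, KO 1, KO 2, Tgfbr1 had 80.8, 82.3, 73.3 and 76.1 CPM and Tgfbr2 had 51.7, 45.1, 46.4 and 47.2 CPM, and neither passed the test. Tags from the 3′ end of a gene can lie outside a deleted part, so these values check nothing about the recombination. The fibroblast markers summed to 26.9 (WT 1), 27.1 (WT 2), 56.4 (KO 1) and 85.7 CPM (KO 2), with all 10 markers detected in every library. Macrophage markers stood at 0.794, 0.442, 10.6 and 0.494 CPM in the same order, and 5 of the 10 were at 0 in each WT library.

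All 5 abundant members were lower in the knockout, and the 2 rare ones were near the detection limit in both genotypes. Col1a1, Col1a2, Col3a1, Col5a1 and Col5a2 passed edgeR's quasi-likelihood test at an adjusted p under 0.05 and fell, 5 of the 7 members, where 11.2% of the 14454 tested genes fell, 9.00% rose and 20.2% did either. For these 5, both KO libraries lay below both WT libraries, as they did for 32.5% of tested genes, and the genotypes were apart in one direction or the other for 63.4%. Col5a3 was tested and did not pass, and Col11a1 had too few counts to enter the test. Summed over the 7 genes, the level was 3587 and 3634 CPM for the WT libraries and 1609 and 1531 CPM for the KO libraries, that is 3611 ± 33.3 against 1570.1 ± 55.2 CPM (SD, n = 2 libraries each). The KO mean was 43.5% of the WT mean, and the genotypes did not overlap.

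Type III collagen had the largest fall of the 7. Col3a1, whose protein is the major fibrillar collagen of distensible vessels beside type I, measured 1300.0 (WT 1) and 1313 CPM (WT 2) against 433 (KO 1) and 413 CPM (KO 2). The KO libraries were both low by a wide margin, with the mean at 32.35% of WT. On the log2 scale Col3a1 fell by 1.63 (SE 0.06, adjusted p in edgeR 2.44e-06).

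The type I genes fell by similar amounts. Col1a2, which encodes the α2 chain, measured 1293 and 1345 CPM for WT against 678 and 652 CPM for KO, 50.4% of the WT mean. Col1a1, which encodes the α1 chain that is present in 2 copies per type I molecule, measured 585 and 571 CPM for WT against 294 and 259 CPM for KO, 47.85% of the WT mean. Neither gene's genotypes overlapped. On the log2 scale Col1a2 fell by 0.99 (SE 0.06, adjusted p in edgeR 2.55e-05) and Col1a1 fell by 1.06 (SE 0.07, adjusted p 6.08e-05).

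The type V genes differed from each other. Col5a2, for the α2(V) chain, measured 247 and 249.9 CPM for WT against 105 and 101 CPM for KO, 41.4% of the WT mean. Col5a1, for the α1(V) chain, measured 162 and 155 CPM for WT against 99.2 and 106 CPM for KO, 64.9% of the WT mean, the smallest fall of the 5 abundant members. The fall of Col5a2 was 1.27 on the log2 scale (SE 0.06, adjusted p in edgeR 1.10e-05), and Col5a1 fell by 0.62 (SE 0.07, adjusted p 0.000588). In WT the Col5a2 level was above that of Col5a1 in both libraries, and in KO the 2 genes lay at 103 ± 3.14 and 103 ± 5.17 CPM.

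The remaining members were close to undetected. Col5a3, for the α3(V) chain, had 10 and 15 UMIs over all WT cells by library and 8 and 24 over all KO cells, or 0.287, 0.305, 0.135 and 0.467 CPM. The KO libraries lay on either side of the WT libraries, and the log2 difference was -0.02 with an SE of 0.57 (adjusted p in edgeR 0.987). Its direction changed with the KO library left out: the log2 difference was 0.65 without KO 1 and -1.12 without KO 2, neither past the threshold. Col11a1, for the α1(XI) chain of cartilage-type fibrils, had 1 UMI in each of WT 1, WT 2 and KO 1 and 2 UMIs in KO 2, which is under the floor of 3 counts, so no fold is given.

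**Figure D1:**
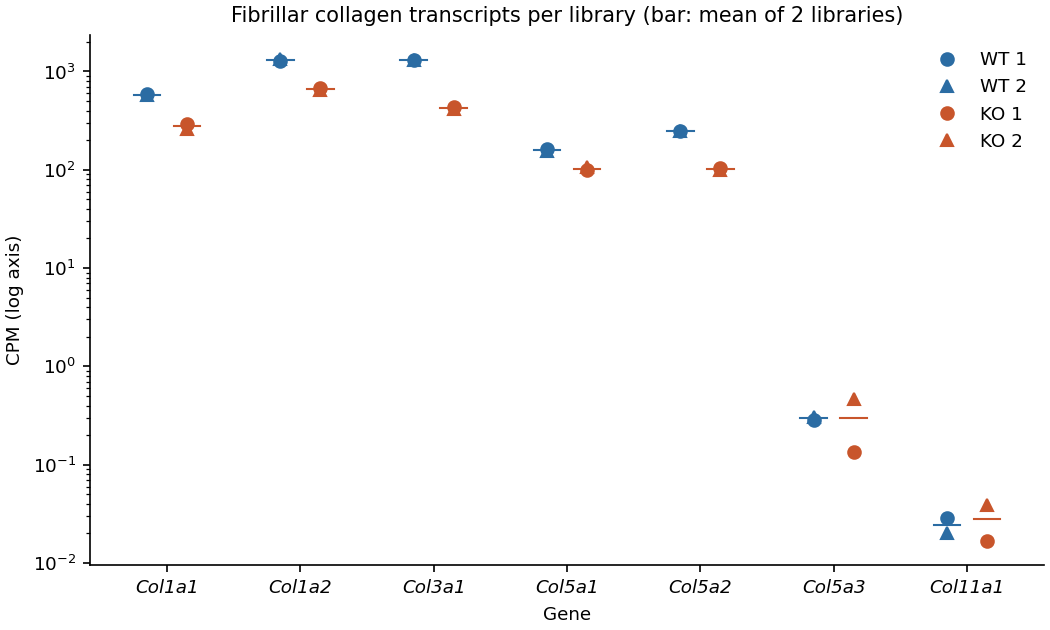
CPM of each of the 7 genes (log axis) in WT 1 (blue circle), WT 2 (blue triangle), KO 1 (orange circle) and KO 2 (orange triangle), with a bar at the mean of 2 libraries. Both KO libraries lie below both WT libraries for the 5 abundant genes, from Col3a1 (1307 ± 9.41 against 423 ± 14.3 CPM) to Col5a1 (158 ± 5.44 against 103 ± 5.17 CPM), while Col5a3 and Col11a1 lie below 1 CPM and their libraries overlap.

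Because the 3′ assay tags each transcript once, whatever its length, the levels of different genes can be set side by side in CPM, apart from differences in how well each 3′ end is captured. In WT the order was Col1a2 and Col3a1 (1319 ± 36.5 and 1307 ± 9.41 CPM, within the spread of the WT libraries), then Col1a1 (578 ± 9.31), Col5a2 (248 ± 2.05), Col5a1 (158 ± 5.44), Col5a3 and Col11a1. In KO the order was Col1a2 (665 ± 18.6 CPM), Col3a1 (423 ± 14.3), Col1a1 (277 ± 24.6), and then Col5a1 and Col5a2, which did not differ beyond their spread. Each pair of neighbours not named as equal, down to the type V genes, was apart in all libraries of its genotype.

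The unequal falls changed the make-up of the summed transcripts. The share of Col3a1 was 36.2% and 36.1% for the WT libraries and 26.9% for both KO libraries, while that of Col1a2 was 36.0% and 37.0% in WT and 42.1% and 42.6% in KO. The share of Col5a1 was 4.52% and 4.25% in WT and 6.16% and 6.95% in KO. Col1a1 took 16.3% and 15.7% (WT libraries) against 18.3% and 16.9% (KO libraries), and Col5a2 took 6.53% to 6.89% in the 4 libraries. As a ratio of UMIs, Col3a1 per Col1a2 was 1.01 and 0.977 in WT and 0.638 and 0.633 in KO. Col5a2 per Col5a1 was 1.52 and 1.62 in WT and 1.06 and 0.945 in KO. For the ratios of Col3a1 to Col1a2, Col3a1 to Col1a1, Col5a2 to Col5a1 and Col5a1 to Col1a1 the genotypes did not overlap, and the two-sided exact permutation test over libraries gave p = 0.3333 for each, the smallest value that 2 against 2 libraries allow. The ratio of the type I chains behaved otherwise: Col1a2 per Col1a1 was 2.21 and 2.35 in WT and 2.31 and 2.51 in KO, the genotypes overlapped, and the exact permutation p was 0.667. Adjusted over these 5 ratios by Benjamini-Hochberg, the exact permutation p was 0.417 for the 4 and 0.667 for the last.

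**Figure D2:**
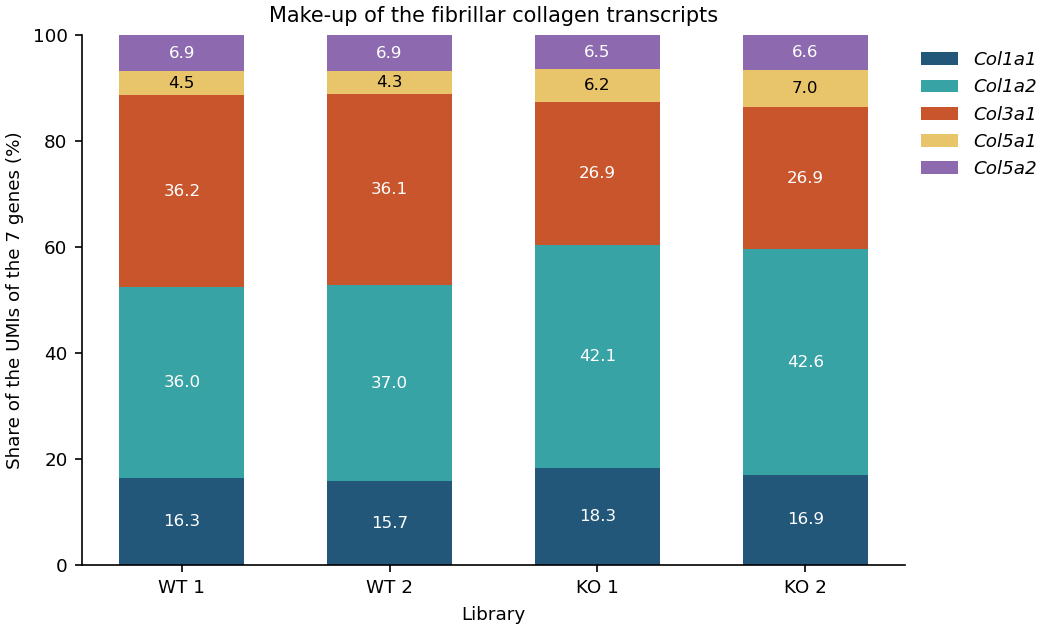
Share of the UMIs of the 7 genes (percent, vertical axis) taken by Col1a1, Col1a2, Col3a1, Col5a1 and Col5a2 in each library (horizontal axis), with Col5a3 and Col11a1 too rare to be drawn. The Col3a1 block is 36.2% and 36.1% high in WT and 26.9% in each KO library, and the Col1a2 block is larger in KO.

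The 7 genes lie on 6 chromosomes of GRCm38 in the GENCODE M21 annotation, and all are protein-coding, with 51 to 67 exons in the transcript that has the most. Col1a1 covers chromosome 11 from 94936224 to 94953042, Col1a2 chromosome 6 from 4504814 to 4541544, Col5a1 chromosome 2 from 27886425 to 28039514 and Col11a1 chromosome 3 from 114030540 to 114220718, each on the plus strand. Col5a3 covers chromosome 9 from 20770050 to 20815067 on the minus strand. Col3a1 (chromosome 1 from 45311538 to 45349706, plus strand) and Col5a2 (45374321 to 45503282, minus strand) are neighbours that point at each other with their 3′ ends 24.6 kb apart, with 0 annotated genes between them. They also had the largest falls of the 7, to 32.35% and 41.4% of WT. Of the annotated genes that overlap a member, 2 were counted in the matrices, both on the strand opposite to Col5a1: 2810430I11Rik had 47 to 97 UMIs per library and Gm13372 had 1 to 6, against 5478 to 7610 for Col5a1.

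RefSeq's table of promoters on GRCm38.p6 held an entry for 5 of the 7 members (Col1a2, Col3a1, Col5a1, Col5a3 and Col11a1), each running from 250 bases before the start that RefSeq annotates to 50 after it. The 250 bases before the start are shown for the 3 abundant ones, since these genes fell by different amounts, and capitals mark 3 sets of letters on either strand: the CCAAT box (CCAAT), the TATA box (TATAAA) and the GC box (GGGCGG). The RefSeq and GENCODE starts of Col1a2 differ, and its stretch lies inside the GENCODE gene, which begins at 4504814. Those of Col3a1 and Col5a1 end just before the GENCODE starts. Col1a2 is at chr6:4505368-4505617, Col3a1 at chr1:45311288-45311537 and Col5a1 at chr2:27886175-27886424, all on the plus strand and written 5′ to 3′.
Col1a2: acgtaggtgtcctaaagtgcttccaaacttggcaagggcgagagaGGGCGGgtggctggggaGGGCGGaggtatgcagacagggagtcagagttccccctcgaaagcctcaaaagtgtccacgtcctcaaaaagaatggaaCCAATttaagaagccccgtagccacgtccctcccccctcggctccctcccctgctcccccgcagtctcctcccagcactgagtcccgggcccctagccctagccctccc
Col3a1: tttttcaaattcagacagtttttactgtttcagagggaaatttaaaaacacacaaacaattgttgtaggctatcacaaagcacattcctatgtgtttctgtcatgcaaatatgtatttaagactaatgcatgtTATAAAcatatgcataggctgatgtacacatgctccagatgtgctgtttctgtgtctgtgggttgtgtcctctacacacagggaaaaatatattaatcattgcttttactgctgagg
Col5a1: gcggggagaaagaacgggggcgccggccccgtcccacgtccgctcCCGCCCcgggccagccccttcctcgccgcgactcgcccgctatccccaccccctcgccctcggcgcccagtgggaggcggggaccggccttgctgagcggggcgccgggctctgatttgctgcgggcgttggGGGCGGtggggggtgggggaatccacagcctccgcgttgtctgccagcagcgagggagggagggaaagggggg

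The 3 stretches differ in base composition: over the 300-base windows G and C made up 61.0% in Col1a2, 37.7% in Col3a1 and 75% in Col5a1. Letters were searched on both strands of the 300-base windows, and the share with a match among all 32851 windows of that length in the table is given beside each count. GGGCGG, the GC box, was found in 4 of the 5 windows and in 35.7% of all windows, and Col3a1 was the one without it. CCAAT was found in Col1a2, Col5a3 and Col11a1 and in 37.4% of all windows. TATAAA was found in Col3a1 alone of the 5, at position 134 of the window (-117 from the annotated start), and in 13.6% of all windows. Whether these letters work as a TATA box there was not tested. CAGAC, the short SMAD-binding letters, was found in Col1a2, Col3a1, Col5a1 and Col11a1, and in 49.6% of all windows. The longer AGCCAGACA, which contains CAGAC, and the palindrome GTCTAGAC were in 0 of the 5 and in 0.4% and 0.2% of all windows. TGACTCA, the AP-1 letters, was in 0 of the 5 and in 5.2% of all windows, and CATTCC, the TEAD letters, was in Col3a1 alone and in 14.7% of all windows.

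The fall was spread over nearly all cells. After each cell was thinned to 5000 UMIs, which left out 150 to 197 shallower cells per library, the median cell held 16 (WT 1) and 17 UMIs (WT 2) of the 7 genes, against 7 in both KO libraries. The 10th and 90th percentiles were 9 and 27 UMIs in WT 1, 9 and 29 in WT 2, and 3 and 13 in each KO library. Of the KO cells, 4.03% and 4.00% held more than 16.5 UMIs, the mean of the WT medians, against 49.3% and 51.5% of WT cells. Cells without any UMI of the 7 genes were rare in both genotypes, at 0.09% and 0.032% in WT and 0.195% and 0.537% in KO. The cell with the most had 83 and 76 UMIs in WT and 103 and 123 in KO, so the highest single cells were in the knockout.

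**Figure D3:**
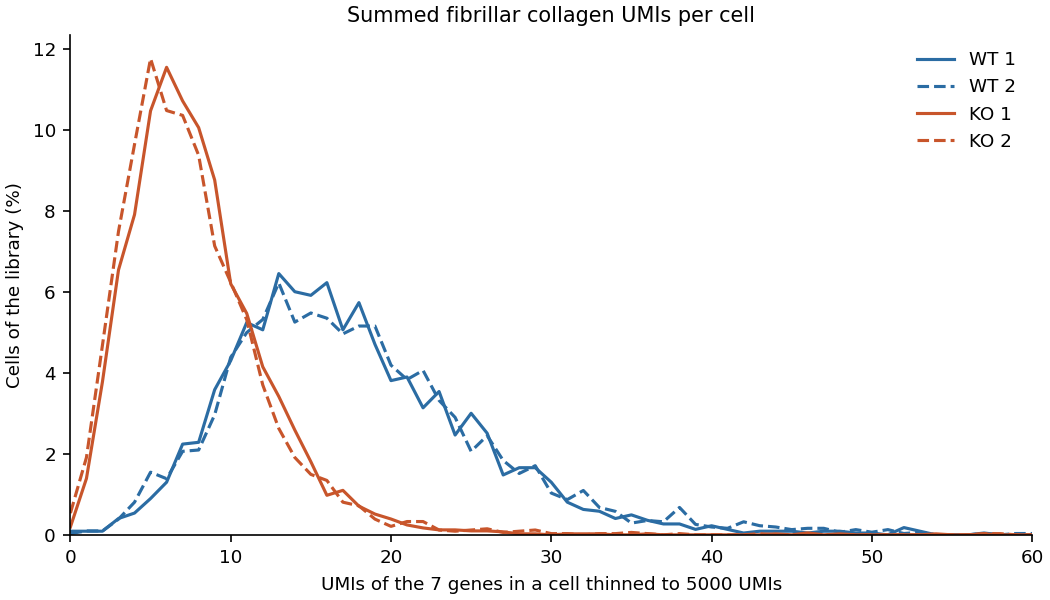
Percent of the cells of each library (vertical axis) by the number of UMIs of the 7 genes in a cell thinned to 5000 UMIs (horizontal axis, drawn to 60), with WT in blue and KO in orange, solid for replicate 1 and dashed for replicate 2. The KO curves peak at lower counts (median 7) than the WT curves (medians 16 and 17), and the tails overlap.

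The share of cells with at least 1 UMI moved with each gene's level. In thinned cells Col3a1 was detected in 97.8% and 98.5% of WT cells by library, against 78.6% and 76.8% of KO cells. Col1a1 was detected in 89.2% and 87.3% against 70.3% and 66.1%, in the same order. For Col5a2 the shares were 64.2% and 65.5% against 38.6% and 37.3%, and for Col5a1 51.5% and 51.5% against 37.7% and 38.9%. Col1a2 was seen in 98.6% and 99.1% against 94.1% and 93.1%. For each of these 5 the genotypes did not overlap and the two-sided exact permutation test over libraries gave p = 0.3333, the smallest value possible with 2 against 2 (0.467 when adjusted over the 7 genes by Benjamini-Hochberg). Without thinning, the shares of Col1a2 were 97.9% and 98.3% in WT and 98.3% and 97.7% in KO, which overlap, while the other 4 stayed apart (Col3a1 97.8% and 98.4% against 93.3% and 92.3%, Col5a2 86.3% and 87.8% against 68.6% and 67.3%). Col5a3 was seen in 3, 5, 4 and 5 thinned cells of WT 1, WT 2, KO 1 and KO 2. Col11a1 was too rare for thinned cells. Without thinning it was seen in 1 of 2429 WT 1 cells, 1 of 3265 WT 2 cells, 1 of 4247 KO 1 cells and 2 of 3519 KO 2 cells, and the exact 95% binomial limits (Clopper-Pearson) allow shares of up to 0.229%, 0.1705%, 0.131% and 0.205%, for counting error only.

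Transcripts free in the droplet fluid can add UMIs to any cell, so the members were also read in the 8 endothelial-like cells that were left out of the tests, 5 from KO 1 and 3 from KO 2, at a median of 8300.5 UMIs per cell against 14551.5 in the tested cells. There Col1a1 had 0 UMIs in the 8 cells, Col3a1 had 7 UMIs in 4 cells (104 CPM), Col1a2 had 28 UMIs in 6 cells (414 CPM) and Col5a1 had 13 UMIs in 5 cells (192 CPM). Col5a2 had 50 UMIs and was present in all 8 (740 CPM). Both type V genes were above their level in the smooth muscle cells of either genotype, Col5a1 on 13 UMIs. The 5 genes were thus not in the ratio they have in smooth muscle cells, where Col1a2 and Col3a1 lead. Myh11, a smooth muscle marker, had 7 UMIs in 3 of the 8 cells (104 CPM). What part of any of these UMIs came from the droplet fluid was not tested.

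Within a library the 5 abundant members varied together from cell to cell, weakly in the counts as they stand. Pearson's r of log2(UMI + 1) over cells thinned to 5000 UMIs had a median over the 10 pairs of 0.147 (WT 1), 0.186 (WT 2), 0.118 (KO 1) and 0.115 (KO 2). These are descriptions over cells that share a library, with counts of a few UMIs per cell, and no p is given. The type I pair, Col1a1 with Col1a2, had the highest r of the 10 in each library, at 0.310, 0.354, 0.173 and 0.230. Next in WT was Col1a2 with Col3a1, at 0.239 and 0.238. The 4 pairs with Col5a1 were the lowest in every library, for example Col5a1 with Col5a2 at 0.0839, 0.107, 0.0544 and 0.0641.

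Sampling of a few UMIs per cell lowers a correlation, and lowers it more at lower levels. A version of r that takes off the variance expected from Poisson sampling had medians of 0.463 (WT 1), 0.552 (WT 2), 0.547 (KO 1) and 0.554 (KO 2). By this measure the type I pair was highest again, at 0.746, 0.797, 0.711 and 0.786, and the genotypes overlapped for that pair. It was not highest under every setting: within the largest cluster, corrected, Col5a1 with Col5a2 led in KO 1 (0.643) and Col1a2 with Col5a2 in KO 2 (0.8235), and at 2500 UMIs, corrected, Col1a1 with Col5a1 led in WT 1 (0.774). Col1a1 with Col3a1 was 0.429 and 0.393 in WT and 0.578 and 0.664 in KO. Within the largest cluster of each genotype alone (cluster 0 for WT and cluster 5 for KO, described below), that pair was 0.393 and 0.420 in WT and 0.386 and 0.328 in KO, so the KO values above the WT values were not found there. In the same cells the corrected medians were 0.432 and 0.458 in WT and 0.396 and 0.352 in KO. Both KO libraries were below both WT libraries for 5 of the 10 pairs there and above for 1, and 4 overlapped.

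**Figure D4:**
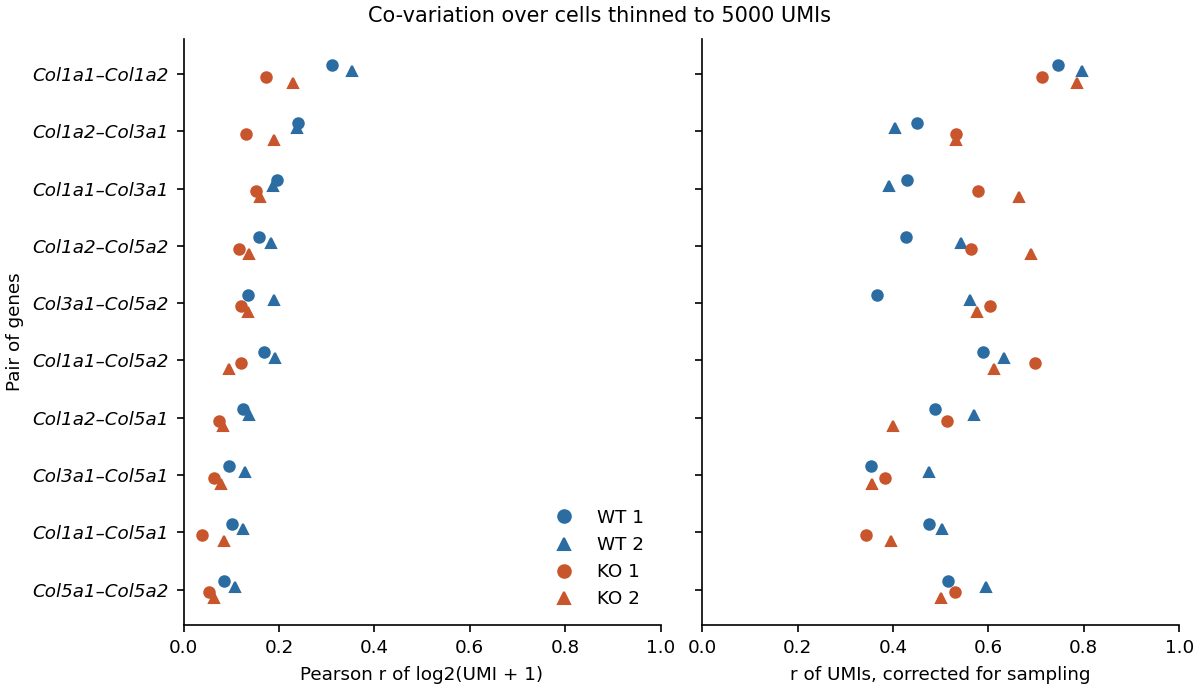
Correlation over cells thinned to 5000 UMIs (horizontal axes) for each of the 10 pairs of abundant members (vertical axis) in the 4 libraries, as Pearson's r of log2(UMI + 1) on the left and as r of UMIs corrected for Poisson sampling on the right. On the left all values lie between 0.0385 and 0.354 with Col1a1 and Col1a2 at the top, and both KO libraries lie below both WT libraries for all 10 pairs. On the right they lie between 0.343 and 0.797, with WT and KO overlapping for 5 of the 10 pairs. There both KO libraries lie above both WT libraries for 4 pairs and below them for 1.

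Other genes were ranked by their correlation with the summed members over thinned cells, taking the lower of a genotype's 2 libraries, among 5738 genes of at least 20 CPM. In WT the 8 most alike were Eln, Sparc, Itga8, Mfap4, Fn1, Ltbp1, Col15a1 and Gxylt2. Eln, which encodes elastin, led with r of 0.346 and 0.415, followed by Sparc, which encodes a collagen-binding matrix protein, with 0.331 and 0.411. In KO the 8 were Sparc, Adamtsl1, Rgs5, Lamc3, Crispld2, Smoc1, Abi3bp and Col14a1, with Sparc at 0.195 and 0.236. Sparc is the gene that stands in both lists, and it fell in KO by 1.37 on the log2 scale (SE 0.10, adjusted p in edgeR 8.3e-05). Itga8 and Ltbp1, both in the WT list, ranked 9 and 10 in KO, just past the cut at 8. Eln ranked 21 in KO, with r of 0.134 and 0.135, and its level was 2780.0 ± 15.9 CPM in WT against 279 ± 66.6 CPM in KO. Rgs5, a regulator of G-protein signalling that marks a subset of mural cells, ranked 3 in KO with r of 0.175 and 0.232, and its own difference in level did not pass the test (log2 difference -0.64, SE 0.34, adjusted p in edgeR 0.227), although it did without KO 2 (log2 difference -1.37, adjusted p 0.00116). Adamtsl1, second in KO, did not pass either (log2 difference 0.83, adjusted p in edgeR 0.315), and its direction turned without KO 2 (-0.31), while without KO 1 it passed (1.46, adjusted p 0.0116).

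Clusters of cells, made from all genes except the 7, separated the genotypes. Cluster 0 held 5022 of the WT cells and 13 KO cells, and cluster 5 held 6572 KO cells and 7 WT cells. Smaller clusters with Rgs5 among their leading genes, called Rgs5-led here, stood beside each: cluster 1 with 349 WT and 12 KO cells, and cluster 6 with 787 KO cells. All 4 had smooth muscle markers as their highest marker list. Cluster 3, of 530 cells with a median of 4382.5 UMIs and macrophage genes (C1qa, F13a1, C1qb) among its leading genes, and cluster 4, of 105 cells with 1492, stayed unnamed. In cluster 3 the smooth muscle markers still summed to 52862 CPM and the macrophage markers to 192 CPM. Those macrophage genes led a sub-cluster of 102 cells, where the macrophage markers summed to 1962 CPM. Because clusters are made from the same cells, their levels are given as descriptions, in CPM of the cluster's own UMIs.

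The members were higher in the Rgs5-led clusters of both genotypes. The summed level was 3506 and 3466 CPM in cluster 0 (WT 1, WT 2) and 5195 and 5443 CPM in cluster 1. It was 1548 and 1392 CPM in cluster 5 (KO 1, KO 2) and 2417 and 2197 CPM in cluster 6. Most of this higher level was type I collagen: Col1a2 went from 1249 and 1243 CPM in cluster 0 to 2335 and 2532 CPM in cluster 1, while Col3a1 stood at 1287 and 1299 against 1422 and 1365 CPM. Col3a1 per Col1a2 was accordingly 1.03 and 1.05 in cluster 0, 0.609 and 0.539 in cluster 1, 0.647 and 0.665 in cluster 5 and 0.472 and 0.469 in cluster 6. The WT cells of cluster 1 thus had a high summed level with a ratio below that of cluster 5.

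The Rgs5-led clusters held 3.71% (WT 1), 7.93% (WT 2), 5.51% (KO 1) and 16.1% (KO 2) of cells, so KO 2 had the most. The genotype difference was present on both sides of this division. In all cells of clusters led by Rgs5 the summed members stood at 5319 ± 175 CPM in WT and 2442 ± 191 CPM in KO (45.9% of WT), and in the other clusters at 3474 ± 24.4 and 1498 ± 97.9 CPM (43.1%). Over all cells the KO level was 44.4% of WT on this scale, which uses raw library totals. With the Rgs5-led clusters left out, an alternative added after the clusters had been seen, all 5 abundant members remained lower and past the threshold in edgeR.

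**Figure D5:**
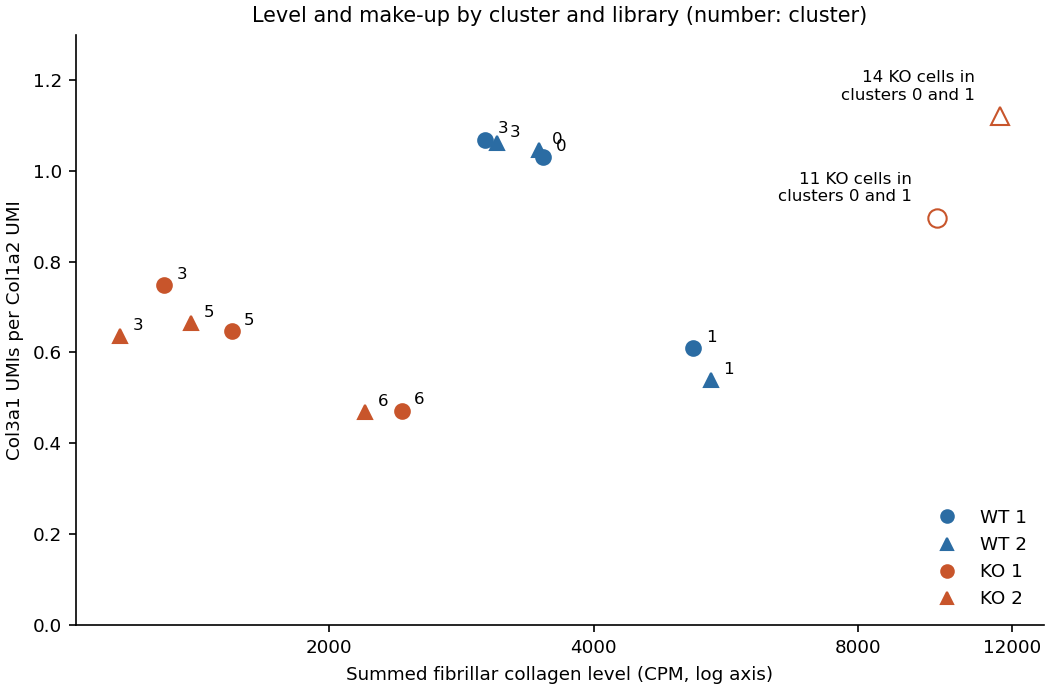
Summed level of the 7 genes in CPM (log axis, horizontal) against Col3a1 UMIs per Col1a2 UMI (vertical) for each cluster and library with at least 50 cells (filled symbols, numbered by cluster) and for the 11 and 14 KO cells that lie in clusters 0 and 1 (open symbols). WT cluster 0 sits at 3466 to 3506 CPM with a ratio of 1.03 to 1.05, and WT cluster 1 at 5195 and 5443 CPM with 0.539 to 0.609. KO clusters 5 and 6 sit at 1392 to 2417 CPM with 0.469 to 0.665, and the open symbols at 9847 and 11608 CPM. Cluster 3 holds cells of both genotypes. It sits at 3006 and 3106 CPM with 1.07 and 1.06 in WT, and at 1297 and 1156 CPM with 0.749 and 0.636 in KO.

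A few KO cells had the highest levels of all. The 11 KO 1 cells and 14 KO 2 cells that fell in clusters 0 and 1, each over 90% WT, had summed levels of 9847 and 11608 CPM, against 3566 and 3609 CPM for the WT cells of those clusters and 1589 and 1511 CPM for the KO cells of clusters 5 and 6. Each of the 25 lay above the median WT cell (3311 CPM), from a lowest of 4325 and 4162 CPM to a highest of 20810 and 27788 CPM in KO 1 and KO 2. They made up 0.259% and 0.398% of the cells and 1.93% and 3.45% of the members' UMIs. Col1a1 stood at 2119 and 2382 CPM and Col3a1 at 3104 and 4333 CPM in them, and the chains of type I collagen set them apart by cluster. Col1a2 per Col1a1 was 1.27 and 1.01 in the 6 and 7 KO cells of cluster 0, below the 2.20 and 2.32 of the WT cells there. It was 2.80 and 2.97 in the 5 and 7 KO cells of cluster 1, beside 2.62 and 2.64 in the WT cells there and 2.74 and 3.16 in the KO cells of cluster 6. The KO cells of cluster 1 held only 592 and 1080 UMIs of the 7 genes, and the counting error of their ratio was not computed. Of the 24 Col5a3 UMIs in KO 2, 5 came from these 14 cells and 10 from clusters led by Rgs5. The cells also differed in other genes: Eln stood at 14770 and 8665 CPM against 2767 and 2782 CPM in the WT cells of these clusters, Myh11 at 2264 and 1993 against 5143 and 5347 CPM, and the fibroblast markers summed to 519 and 2810 CPM against 26.9 and 27.2 CPM. UMIs of tdTomato were present in 3 of the 11 and 7 of the 14, none of the 25 was among the 3% of cells with the highest doublet scores, and their median UMI count was 14117 and 16977.5. The part of fibroblast transcripts in these levels was not tested. Without the 25 cells and the 7 WT cells of cluster 5, the KO level was 42.5% of WT after TMM scaling (43.5% with them), and the 5 abundant members stayed lower and past the threshold in edgeR.

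Cells with elastin at or above the median WT cell overlap with these. There were 14 in KO 1 and 16 in KO 2, and their summed members stood at 9517 and 9752 CPM. In WT, cells above and below that elastin level had 3948 and 4146 CPM against 3122 and 3058 CPM.

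KO cells with transcripts of the unrecombined reporter were also higher. The KO cells with 5 or more tdTomato UMIs, 48 in KO 1 and 29 in KO 2, had summed members of 2431 and 2815 CPM, against 1598 and 1519 CPM in KO cells with none. Their Col3a1 level was 776 and 1046 CPM, against 429 and 404 CPM. Cells with 1 to 4 tdTomato UMIs, 67 and 29, stood at 1955 and 4458 CPM, so the libraries disagreed there. These KO cells with any tdTomato UMI include 3 of the 11 KO 1 cells and 7 of the 14 KO 2 cells in clusters 0 and 1, which had the highest levels. WT libraries held 1 and 2 cells with any tdTomato UMI.

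The summed fibroblast markers were higher in both KO libraries, and their part in the members' levels was not tested. Of the 10 markers, 7 were above both WT libraries in both KO libraries, Dcn and Lum with the largest differences in CPM. Clec3b and Dpep1 were below them in both, and Pi16 overlapped. Over all tested genes, the genotypes were apart in one direction or the other for 63.4%, with both KO libraries below for 32.5%. Of the 10 endothelial markers, 7 were above, 2 below and 1 overlapping. Yet their sum was lower in KO, at 35.2 (WT 1), 34.8 (WT 2), 26.7 (KO 1) and 26.9 CPM (KO 2). The highest of those 7, Vwf, stood at only 1.66 and 1.42 CPM in KO, while the more abundant Pecam1 and Flt1 were the 2 below. Cells with a UMI of any of Pdgfra, Pi16, Clec3b, Dpt, Cd34 and Ly6a were 9.18% (WT 1), 11.1% (WT 2), 11.1% (KO 1) and 11.9% (KO 2) of all cells, and had summed members of 3981, 3995, 2039 and 2279 CPM in that order. Cells with none had 3501, 3545, 1558 and 1453 CPM, and in them the KO level was 42.7% of WT on raw library totals and 41.9% after TMM scaling, beside 44.4% and 43.5% over all tested cells. Cluster 8, with Dcn and Lum among its leading genes, held 20 KO 1, 14 KO 2 and 0 WT cells. Its fibroblast markers summed to 4475 CPM and its smooth muscle markers to 16317 CPM. Without the 8 endothelial-like cells, 15 and 11 of its cells stayed in the tests. Their summed members stood at 2678 and 3021 CPM, with Col3a1 per Col1a2 at 0.859 and 1.18. With small or shallow clusters left out, cluster 8 among them, the KO level was 43.4% of WT after TMM scaling.

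The other fibrillar collagen genes were scarce. Of Col2a1, Col11a2, Col24a1 and Col27a1, 2 had enough counts for the test and both fell, where 11.2% of all tested genes fell and 9.00% rose. Col27a1, a fibrillar collagen found outside the classical fibrils, measured 18.2 and 19.9 CPM for WT against 13.8 and 12.6 CPM for KO (log2 difference -0.53, SE 0.09, adjusted p in edgeR 0.00522). Col11a2, for the α2(XI) chain, had 31, 40, 26 and 18 UMIs by library, WT first (log2 difference -1.09, SE 0.30, adjusted p 0.0371), and its adjusted p in edgeR rose to between 0.0947 and 0.171 when any 1 of the 4 libraries was left out. Col2a1 and Col24a1 had 0 to 4 UMIs per library.

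Enzymes and chaperones that act on procollagen in the endoplasmic reticulum fell in most cases: of 15 tested genes of 17 listed, 14 fell, 0 rose and 1 did not pass, with a median log2 difference of -0.58. Over all tested genes 11.2% fell, 9.00% rose and the median was -0.006. Plod2, a lysyl hydroxylase that prepares crosslinking sites, fell by 1.59 on the log2 scale (128 ± 4.89 to 42.5 ± 1.62 CPM, adjusted p in edgeR 5.39e-06). Colgalt1, which adds galactose to hydroxylysine, fell by 0.67 and P3h2, a prolyl 3-hydroxylase, fell by 1.19, both past the threshold in edgeR (adjusted p 0.000417 and 0.000572). The 1 gene that did not pass was Plod1 (log2 difference -0.13), named after its value was seen.

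Genes of procollagen export and of collagen transcription were mixed. Of 14 tested, 5 fell, 2 rose and 7 did not pass, with a median log2 difference of -0.08, where 11.2% of all tested genes fell and 9.00% rose, so the share that rose was near that of all genes. Sec24d, a coat protein of the vesicles that carry procollagen, fell by 0.71 (SE 0.08, adjusted p in edgeR 0.000485). Scx, a transcription factor of tendon and other fibrous tissue that drives Col1a1 and Col1a2, fell from 79.4 ± 3.33 to 33.8 ± 10.6 CPM (log2 difference -1.23, SE 0.18, adjusted p in edgeR 0.00209). Smad3, a signal carrier downstream of the TGF-beta receptors, rose from 6.86 ± 0.31 to 12.2 ± 0.40 CPM (log2 difference 0.84, SE 0.10, adjusted p in edgeR 0.000891).

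Among genes that trim procollagen and crosslink fibrils, 5 of 11 tested fell, 2 rose and 4 did not pass (median log2 difference -0.50), beside 11.2% lower and 9.00% higher over all tested genes. Lox, the lysyl oxidase that starts covalent crosslinks, fell from 184 ± 4.36 to 41.1 ± 4.26 CPM, by 2.16 on the log2 scale (SE 0.08, adjusted p in edgeR 3.26e-06). Adamts2, which removes the amino-terminal propeptide of types I, II and III, fell by 0.61 (SE 0.06, adjusted p in edgeR 0.000488). Pcolce2, an enhancer of carboxy-terminal propeptide removal, rose from 56.8 ± 8.98 to 118 ± 6.82 CPM (log2 difference 1.05, SE 0.11, adjusted p in edgeR 0.000397).

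Proteins that sit on the fibril surface or help fibrils to form changed in both directions: 9 of 16 tested fell, 4 rose and 3 did not pass (median log2 difference -0.47), against 11.2% and 9.00% of all tested genes. Aspn, which encodes asporin, a small leucine-rich protein that binds collagen, fell from 41.1 ± 5.33 to 2.71 ± 0.29 CPM (log2 difference -3.92, SE 0.13, adjusted p in edgeR 1.66e-06). Bgn, which encodes biglycan, fell by 1.37 (2334 ± 41.2 to 902 ± 16.5 CPM, adjusted p in edgeR 3.27e-06). Thbs1, which encodes thrombospondin 1, an activator of latent TGF-beta, rose from 3.69 ± 0.24 to 15.1 ± 0.09 CPM (log2 difference 2.03, SE 0.10, adjusted p in edgeR 1.46e-05). The list shares Dcn and Lum with the fibroblast markers, and both are among the 4 that rose.

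Of 7 tested collagen receptors of 10 listed, 1 fell, 0 rose and 6 did not pass (median log2 difference -0.19). With 11.2% of all tested genes lower, the count of receptors is near the background. Ddr1, a collagen-activated receptor kinase, fell by 0.42 (SE 0.10, adjusted p in edgeR 0.0244), and its adjusted p was 0.116 without WT 1 and 0.084 without KO 2. Itga1, the α1 integrin subunit of smooth muscle, stood at 272 ± 3.30 and 238 ± 4.39 CPM (log2 difference -0.19, adjusted p in edgeR 0.056), and Itga10 at 16.6 ± 1.57 and 19.9 ± 1.77 CPM (log2 difference 0.26, adjusted p 0.116).

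Of 11 tested genes for collagen breakdown and its inhibitors, 3 fell, 2 rose and 6 did not pass (median log2 difference -0.17), set beside the 11.2% that fell and 9.00% that rose among all tested genes. Ctsl, the lysosomal protease cathepsin L, fell from 422 ± 35.6 to 219 ± 10.03 CPM (log2 difference -0.94, SE 0.08, adjusted p in edgeR 0.000125). Mmp9, a gelatinase, rose from 1.32 ± 0.12 to 2.28 ± 0.04 CPM (log2 difference 0.79, SE 0.20, adjusted p in edgeR 0.0249), a call lost without any 1 of the 4 libraries (adjusted p 0.053 to 0.103). Timp1, an inhibitor of matrix metalloproteinases, rose from 10.8 ± 2.40 to 16.6 ± 2.15 CPM (log2 difference 0.62, SE 0.15, adjusted p in edgeR 0.0252), and its adjusted p was 0.0849 without WT 1 and 0.0883 without KO 1. The lists of partner genes were drawn up with earlier results of these data known, and nothing is claimed for them beyond their counts.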

How the data were processed

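Single-cell 3′ libraries (Chromium Next GEM v3.1) were analysed from the count matrices the authors deposited, which hold whole-number UMI counts per gene and cell; per the file headers the software was Cell Ranger 5.0.1. The submitters' processing notes also name mm10 and Seurat 4.0, with no role given. The cell filter was 1000 or more UMIs, 500 or more genes and a mitochondrial share of 10% or less, and 8 endothelial-like cells were left out. Counts were summed per library and tested across all 14454 genes passing filterByExpr with edgeR 4.0.16 (quasi-likelihood, TMM, Benjamini-Hochberg, threshold 0.05) in R 4.3.3. Alternatives used limma 3.58.1 and DESeq2 1.42.0. Cells were thinned to 5000 UMIs for shares and correlations and clustered without the 7 genes in scanpy 1.11.5, where doublet scores were also computed and the 3% highest were left out as an alternative. Scripts were tested on simulated data. The members and gene lists were chosen with earlier results of these data known. Named genes were the 3 of each list with the lowest p, every testable other fibrillar collagen, and the 8 most alike per genotype. Genome sequence outside the RefSeq promoter table was not used here. Floors and intervals cover counting error only.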

Additional observations from a re-analysis of the deposited data

How the results depend on the processing

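Under all 15 other settings of the gene test, the 5 abundant members stayed lower and past the threshold, with log2 differences of -1.16 to -0.97 for Col1a1, -1.02 to -0.96 for Col1a2, -1.71 to -1.59 for Col3a1, -0.67 to -0.57 for Col5a1 and -1.31 to -1.24 for Col5a2. Over all genes, leaving out 1 library gave 1035 to 1286 lower and 779 to 1128 higher genes, against 1625 and 1301, and the lowest counts, 1035 and 779, came without WT 1. Direction turned for Col5a3 (0.27 with stricter cell filters, 0.04 without WT 2, 0.65 without KO 1, 0.02 in DESeq2, and from -1.12 to 0.65 over single libraries left out), Adamtsl1 (-0.31 without KO 2, up to 1.62 without WT 2), Crispld2 (0.081 without WT 2, 0.061 without KO 1, down to -0.45 without KO 2) and Smoc1 (0.096 without KO 1, down to -0.47 without KO 2), none of the turned values past the threshold, and the cause was not tested. Among 35 other named genes, 17 calls were lost and 15 gained over the settings. The summed KO level, on the TMM scale, was 41.9% of WT in cells without fibroblast markers, 43.2% to 43.8% without a WT library and 42.4% to 44.6% without a KO library. The median correlation, 0.166 in WT, was 0.111 at 2500 UMIs, 0.324 without thinning, and 0.507, 0.532 and 0.445 corrected at 5000 UMIs, at 2500 and within the largest cluster. In KO it was 0.117, then 0.067, 0.208, 0.551, 0.569 and 0.374 in that order, with 0.101 by Spearman and 0.077 within the largest cluster uncorrected. The corrected and within-cluster correlations, and the settings that leave out clusters or cells lying in the other genotype's clusters, were chosen after seeing the data.

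With the replicate number as a block the 5 members stayed lower, with log2 differences of -1.07, -0.99, -1.63, -0.62 and -1.27, and 1802 genes were lower and 1531 higher. Deviations of WT 1 and KO 1 from their genotype means correlated at -0.003 over 5743 genes. This is a single correlation from 2 libraries per genotype, so it cannot settle whether the numbers mark a shared batch. The labels do not say what the numbers mark. With 2 libraries per genotype, no permutation test could pass the threshold.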
